A study of Mus musculus with 30 samples.

Results

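The mouse genes numbered from Zfp500 to Zfp999 encode zinc finger proteins, which bind DNA or RNA through small domains folded around a zinc ion. On these Affymetrix Mouse Gene 1.0 ST arrays 170 such genes, of 19938 genes measured in all, had a probe set that names no other gene. Members were chosen by symbol, and the range of numbers was picked because it includes Zfp640 and Zfp980, which showed some of the largest day 5 minus day 0 falls in ES cells. The ES cell values of that contrast are therefore a description here and carry no test. Where several probe sets named a member (9 of the 170), the one brightest on average across the arrays was read.

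The series compared endoderm made in culture from mouse embryonic stem (ES) cells and from induced pluripotent stem (iPS) cells, which are made by reprogramming adult cells, with endoderm of the embryo. The 30 arrays fall into 10 groups, each with 3 biological replicates. The 18 arrays labelled without amplification hold the iPS clones ST8 and ST5 and 1 ES line, each at day 5 and at day 0 of differentiation. The 12 arrays labelled after WT-Ovation Pico amplification hold E8.25 foregut, E8.25 ENDM1-negative cells, ES cells at day 5 and ES cells at day 0. Cells of day 5 were sorted as ckit+/Sox2dim, which the submitters call definitive endoderm, and cells of day 0 as Sox2bright. Foregut was sorted as ENDM1+/Epcam+/SSlo, and the comparison cells of the same embryos' stage as Epcam+ and negative for the endoderm antibody ENDM1. All cultured cells had the C57BL/6x129SvJae background and RNA from the miRNeasy Mini kit, and the embryos were Swiss webster with RNA from the RNeasy Micro kit. Each iPS line is 1 clone, so a difference between clones, or of both clones from the ES line, may belong to those lines alone.

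Most numbered Zfp proteins of the mouse carry arrays of C2H2 fingers, and many begin with a KRAB domain. The KRAB domain recruits Trim28 (KAP1), a scaffold that brings the histone methyltransferase Setdb1 and heterochromatin proteins, and DNA methylation can follow. In pluripotent cells and early embryos this system silences retrotransposons and keeps the methylation of imprinted genes, and KRAB genes lie in clusters of recent duplicates that evolve together with the elements they bind. Which of the 170 members carry a KRAB domain was not analysed here. Members without one include transcription factors, chromatin-bound partners and RNA or ribosome factors, so the symbol range is a naming range and no functional class.

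All values are log2 expression values, on which 1 unit is a 2-fold difference, and array medians lay between 5.50 and 5.57 without amplification and between 5.69 and 5.74 with it. Levels are compared within a labelling and within a gene. The number of arrays limits the precision, and no probe-level background was available, so whether the lowest values lie above background was not tested. The pluripotency markers were lower at day 5 in 12 of 12 cases in ST8, 12 of 12 in ST5 and 11 of 12 in ES cells. Definitive endoderm markers were higher in 10 of 11, 10 of 11 and 9 of 11. The lists include Sox2 and Kit, on which the cells were sorted, so those markers are not independent of the gates. Fibroblast markers moved with the day as well, lower at day 5 in 10 of 12 cases in ST8 (array means 5.51 to 5.58 at day 5 and 7.62 to 7.89 at day 0) and 11 of 12 in ST5 (5.41 to 5.49 and 7.65 to 7.88), and their part in the results was not tested. Day and sort gate differ together and cannot be told apart. In bulk samples, fewer cells of a type and less RNA per cell cannot be told apart either.

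A pair of day 5 arrays without amplification stood apart within their groups. ST8 day 5 replicate 2 had Nanog at 6.85 against 9.93 and 9.84 on the other ST8 day 5 arrays, Pou5f1 at 7.25 against 10.48 and 10.43, and Sox17 at 9.30 against 7.40 and 7.23. ES day 5 replicate 1 had Nanog at 8.18 against 9.24 and 9.24, and Sox17 at 9.35 against 7.15 and 7.28. Amplified ES day 5 replicate 1 showed the same pattern, with Nanog at 7.80 against 9.32 and 9.29. Pluripotency genes were lower and Sox17 higher on these arrays than on their replicates, and counts are given below with and without them.

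In culture 87 of the 170 members differed between the days in ST8 and 112 in ST5, and the largest falls reached further than the largest rises. In ST8 48 members rose and 39 fell at day 5 by limma, with p-values adjusted over all genes by Benjamini and Hochberg and a threshold of 0.05, against 21.0% and 19.5% of all genes. In ST5 68 rose and 44 fell, against 23.2% and 24.8% of all genes. The members that rose were thus 28.2% in ST8 and 40% in ST5, and those that fell 22.9% and 25.9%. Without the ST8 array that stood apart, 83 members of ST8 were called in place of 87. The median difference of the 170 members was 0.01 in ST8 and 0.08 in ST5, with all genes at -0.01 and -0.04. A fall of more than 1 log2 unit was seen in 10 members in ST8 and 9 in ST5, and a rise of that size in 4 and 10. Among all 19938 genes the corresponding counts were 630 and 980 falls and 807 and 1230 rises. Falls also reached further than rises over all genes. There the lowest difference was -6.76 in ST8 and -7.30 in ST5, and the highest 5.03 and 6.52. The other numbered genes, Zfp1 to Zfp499 (147 measured), had 46 rises and 35 falls in ST8 and 56 and 36 in ST5.

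The most affected members were Zfp640 on chromosome 13 and a run of neighbours on chromosome 4. Zfp640 read 2.88, 2.53 and 2.88 in ST8 at day 5, against 9.30, 9.06 and 9.19 at day 0. In ST5 it read 2.31, 2.49 and 2.63 at day 5, against 8.63, 8.79 and 9.14 at day 0. Every day 5 array lay far below every day 0 array of its clone. The fall was 6.42 on the log2 scale in ST8 (SE 0.14, limma adjusted p = 1.72e-14) and 6.38 in ST5 (SE 0.14, adjusted p = 2.45e-14), which is 85.8-fold and 83-fold. All 3 probe sets of Zfp640 behaved alike, with ST5 means of 2.27, 2.33 and 2.48 at day 5 and of 7.99, 8.64 and 8.85 at day 0. A further 2 probe sets that name Zfp640 together with another gene differed by -6.11 to -5.84 in ST8 and by -6.22 to -5.81 in ST5.

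Zfp980 came next, with 3.54, 2.34 and 3.49 in ST8 at day 5, against 8.94, 8.93 and 8.99 at day 0. In ST5 its levels were 2.23, 2.41 and 2.19 at day 5, against 8.41, 8.64 and 8.95 at day 0. The groups are again wide apart, and within ST8 day 5 the replicate with low Nanog is also the one with low Zfp980. The fall was 5.83 in ST8 (SE 0.22, limma adjusted p = 6.83e-12) and 6.39 in ST5 (SE 0.22, adjusted p = 2.36e-12).

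In gene order, Zfp980 is followed on chromosome 4 by Zfp600, Zfp991, Zfp982, Zfp985, Zfp979 and Zfp933, with at most 10 other protein-coding genes between neighbours. In mouse ES cells this chromosome 4 cluster of KRAB genes is known from deletion experiments to restrain retrotransposons, and Zfp979, also called Ssm1b, directs strain-specific methylation of a transgene. A total of 6 of these 7 members had an entry in the RefSeq promoter table (GRCm38.p6), which holds 250 bases before and 50 after a start. The promoters are shown because the members next to each other moved together and 5 of them are near copies of each other. The set compared was chosen after the values were seen. The windows are chr4:145670447-145670746 on the plus strand for Zfp980, chr4:146156577-146156876 (plus) for Zfp600, chr4:147492167-147492466 (plus) for Zfp982, chr4:147553027-147553326 (plus) for Zfp985, chr4:147642459-147642758 (minus) for Zfp979 and chr4:147848369-147848668 (minus) for Zfp933. Capitals mark the first of the longest runs of bases that the first 5 share. Other shared runs of the same length were neither marked nor searched for in other promoters.
Zfp980: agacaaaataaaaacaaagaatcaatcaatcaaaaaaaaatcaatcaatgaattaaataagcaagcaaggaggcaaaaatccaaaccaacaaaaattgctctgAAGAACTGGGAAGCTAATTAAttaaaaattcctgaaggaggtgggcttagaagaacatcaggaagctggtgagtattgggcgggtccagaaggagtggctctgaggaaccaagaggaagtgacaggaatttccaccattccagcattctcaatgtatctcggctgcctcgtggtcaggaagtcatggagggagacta
Zfp600: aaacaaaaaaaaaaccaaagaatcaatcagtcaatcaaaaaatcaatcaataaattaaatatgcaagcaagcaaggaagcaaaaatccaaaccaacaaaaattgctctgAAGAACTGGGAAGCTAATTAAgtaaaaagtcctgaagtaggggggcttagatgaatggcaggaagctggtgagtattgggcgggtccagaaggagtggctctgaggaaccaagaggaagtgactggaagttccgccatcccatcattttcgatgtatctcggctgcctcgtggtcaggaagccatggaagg
Zfp982: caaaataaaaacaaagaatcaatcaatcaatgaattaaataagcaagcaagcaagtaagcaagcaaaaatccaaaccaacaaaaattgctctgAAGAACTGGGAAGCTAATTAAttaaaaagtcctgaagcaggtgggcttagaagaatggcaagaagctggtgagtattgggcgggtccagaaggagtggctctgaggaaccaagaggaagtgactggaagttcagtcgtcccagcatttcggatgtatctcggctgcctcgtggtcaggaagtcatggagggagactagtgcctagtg
Zfp985: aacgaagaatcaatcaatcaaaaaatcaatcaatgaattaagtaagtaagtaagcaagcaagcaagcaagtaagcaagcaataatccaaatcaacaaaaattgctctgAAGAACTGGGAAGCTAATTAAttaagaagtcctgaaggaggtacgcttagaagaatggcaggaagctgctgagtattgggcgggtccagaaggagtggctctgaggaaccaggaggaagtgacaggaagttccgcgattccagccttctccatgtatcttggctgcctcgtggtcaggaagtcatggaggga
Zfp979: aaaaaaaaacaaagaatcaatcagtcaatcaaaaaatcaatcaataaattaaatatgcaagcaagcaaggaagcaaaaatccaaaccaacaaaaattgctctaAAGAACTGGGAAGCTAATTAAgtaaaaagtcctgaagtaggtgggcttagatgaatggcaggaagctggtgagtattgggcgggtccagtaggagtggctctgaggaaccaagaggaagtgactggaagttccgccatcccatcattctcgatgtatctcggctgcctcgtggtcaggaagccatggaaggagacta
Zfp933: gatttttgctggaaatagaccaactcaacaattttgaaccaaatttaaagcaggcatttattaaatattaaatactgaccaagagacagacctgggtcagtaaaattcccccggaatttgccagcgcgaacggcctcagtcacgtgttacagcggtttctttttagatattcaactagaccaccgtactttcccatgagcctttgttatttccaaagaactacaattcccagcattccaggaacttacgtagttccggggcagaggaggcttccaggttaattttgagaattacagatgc

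The run AAGAACTGGGAAGCTAATTAA has 21 bases, ends at positions -137 to -121 counted from the annotated start, and was searched on both strands. It occurs in 9 of 32851 promoters of the table (0.0274%). All 9 belong to genes of chromosome 4, namely Zfp980, Zfp600, Zfp982, Zfp985 and Zfp979 among the members, and Rex2, Zfp534, Zfp987 and Zfp988, which have no probe set of their own here. Between the 5 members the windows were 80.6% to 94.4% identical over the aligned columns, gaps included, the closest pair being Zfp600 and Zfp979. Against Zfp933, whose window lacks the run, identity was 45.6% to 47.9%. A run of letters is a description of these windows and is no binding site. The run was sought in the windows of falling members with Zfp933 left out, and a link between the run and the fall was not tested. The table lists 2 starts for Zfp600 and 3 for Zfp982, of which the window shown is the one with the run.

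The other falling neighbours on chromosome 4 shared the direction and differed in size. Zfp600 read 3.77, 2.84 and 3.69 in ST8 at day 5, against 7.28, 7.13 and 7.70 at day 0, and 2.19, 2.78 and 2.58 in ST5 at day 5, against 6.47, 7.29 and 7.39 at day 0. Zfp979 read 4.03, 2.52 and 3.59 in ST8 at day 5, against 7.91, 7.68 and 7.77 at day 0, and 2.57, 3.15 and 3.33 in ST5 at day 5, against 7.36, 7.43 and 7.74 at day 0. Both fell in each clone with no overlap between the days, Zfp600 by 3.94 in ST8 and by 4.53 in ST5 (limma adjusted p = 6.11e-09 and 9.38e-10) and Zfp979 by 4.41 and by 4.49 (adjusted p = 7.05e-09 and 4.09e-09). Zfp982 fell too (-1.80 in ST8 and -1.83 in ST5), as did Zfp985 (-1.36 and -1.85) and Zfp991 (-1.24 and -1.44), with limma adjusted p between 1.04e-06 and 1.64e-08. Zfp991 kept levels of 8.68, 8.11 and 8.52 in ST8 at day 5, against 9.62, 9.73 and 9.69 at day 0.

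Zfp933, the last gene of the neighbourhood, did not share the fall. It read 6.12, 6.35 and 6.27 in ST8 at day 5, against 6.19, 6.11 and 6.00 at day 0 (difference 0.15, SE 0.09, limma adjusted p = 0.193). In ST5 it read 6.24, 6.37 and 6.39 at day 5, against 6.24, 5.91 and 5.97 at day 0, a rise of 0.29 (adjusted p = 0.00948) that did not hold without ST5 day 0 replicate 2 (0.23, adjusted p = 0.0563). Thus 0 of the 7 members rose and 6 fell in ST8, and 1 rose and 6 fell in ST5, with medians of -1.80 and -1.85. Of all genes 21.0% rose and 19.5% fell in ST8, and 23.2% rose and 24.8% fell in ST5. Zfp980, which drew attention to the range, is counted among them. Another 6 probe sets name a gene of this neighbourhood together with other genes, between 5 and 13 genes each, and all 6 were below 0, from -4.38 to -1.22 in ST8 and from -4.78 to -1.56 in ST5. How far a probe set of 1 such near copy also reads its relatives was not tested, so the sizes of single genes in this family are uncertain.

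**Figure D1:**
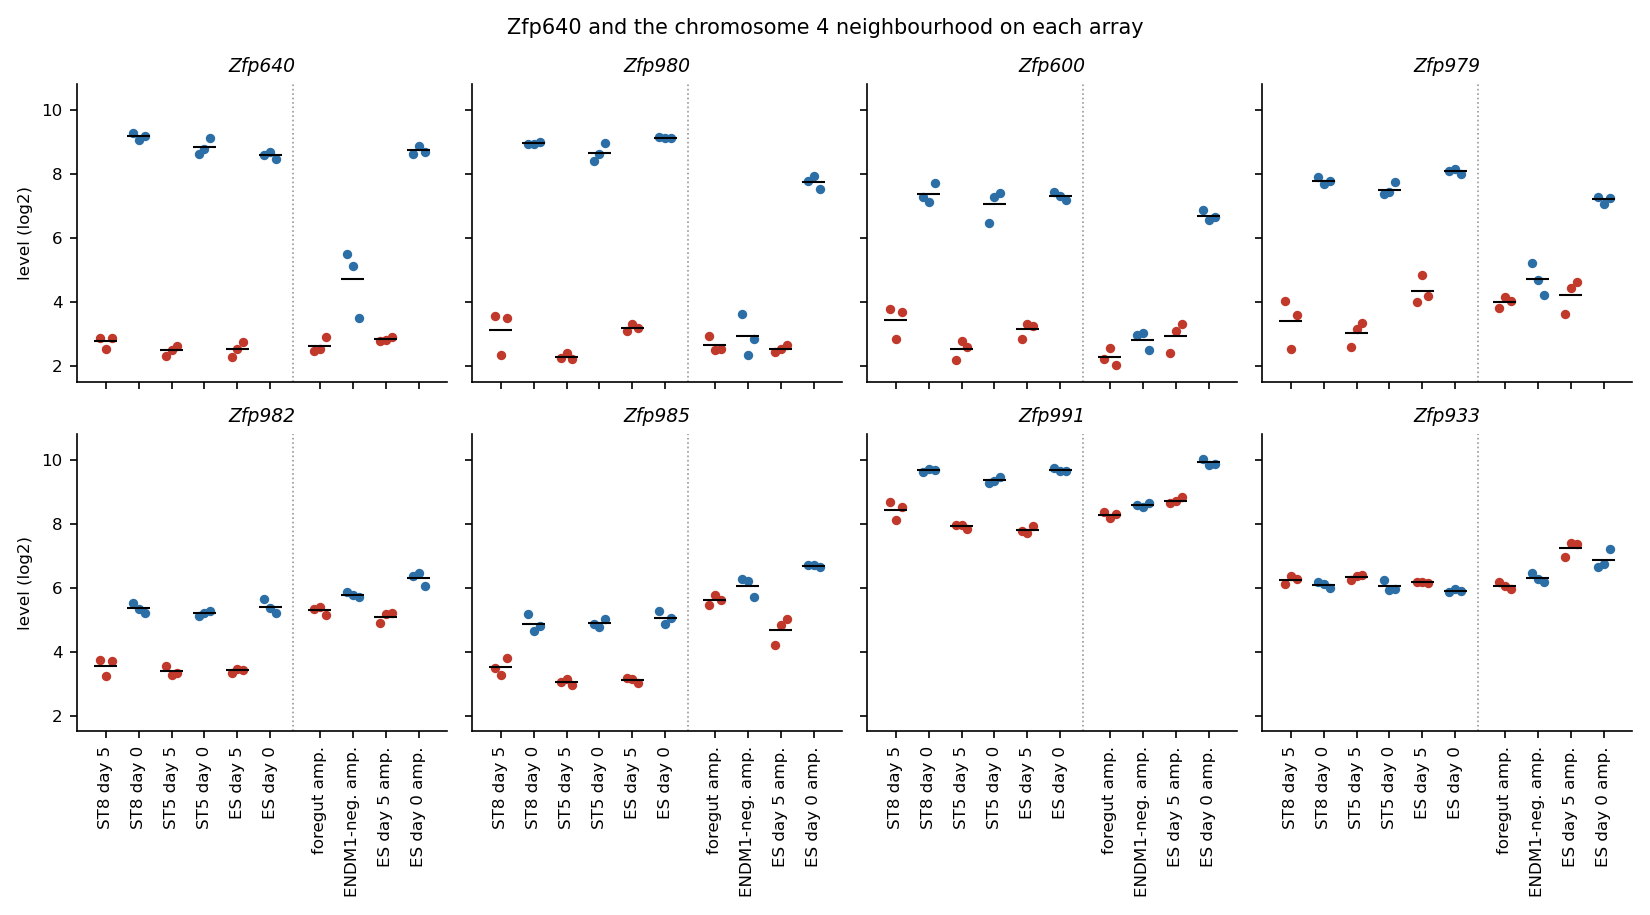
Log2 level of Zfp640 and of the 7 members of the chromosome 4 neighbourhood on each of the 30 arrays (points) with group means (bars), unamplified arrays left of the dotted line and amplified arrays right of it. Red points are day 5 or foregut and blue points day 0 or ENDM1-negative cells. Day 5 arrays of Zfp640 lie between 2.26 and 2.89 in every line, day 0 arrays between 8.45 and 9.30, and Zfp933 shows no such gap.

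The same genes in ES cells, where Zfp640 and Zfp980 had drawn attention to this range, are given as a description. Without amplification Zfp640 read 2.26, 2.52 and 2.74 in ES cells at day 5, against 8.60, 8.69 and 8.45 at day 0. Zfp980 read 3.10, 3.30 and 3.18 at day 5, against 9.15, 9.12 and 9.12 at day 0. The differences were -6.07 for Zfp640, -5.94 for Zfp980, -4.17 for Zfp600, -3.74 for Zfp979, -2.0 for Zfp982, -1.95 for Zfp985 and -1.88 for Zfp991. In that contrast 45 members were higher and 47 lower, against 18.9% and 19.7% of all genes, and nothing is read from these counts. The count was 92 in all and 84 without ES day 5 replicate 1. On the amplified arrays Zfp640 read 2.78, 2.80 and 2.89 in ES cells at day 5, against 8.64, 8.89 and 8.67 at day 0, and Zfp980 read 2.43, 2.52 and 2.64, against 7.79, 7.94 and 7.54. There 31 members were higher and 30 lower, against 13.0% and 13.8% of all genes, and 57 in all were called without replicate 1 of day 5. Deviations from the group mean of same-numbered amplified and unamplified ES day 5 arrays correlated across genes at 0.65, 0.447 and 0.285, so these arrays may hold the same cultures, which the labels do not say, and the amplified ES day 5 minus day 0 values are likewise a description only.

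Zfp640 did not carry its own neighbours with it to the same extent. On chromosome 13 it is followed by Zfp708, known to repress a class of retrotransposons, and by Zfp759, Zfp595, Zfp953, Zfp748 and Zfp738. Of these 7 members, Zfp640 itself included among the falls, 1 rose and 5 fell in ST8 and 1 rose and 3 fell in ST5. The shares of all genes were 21.0% and 19.5% in ST8 and 23.2% and 24.8% in ST5, and the counts were not tested against them. Zfp953 read 5.85, 5.66 and 5.98 in ST8 at day 5, against 6.68, 6.50 and 6.52 at day 0, and 5.59, 5.50 and 5.43 in ST5 at day 5, against 6.17, 6.22 and 6.30 at day 0. It fell by 0.73 in ST8 and by 0.72 in ST5 with no overlap of arrays (limma adjusted p = 3.57e-06 and 2.66e-06). Zfp748 moved the other way, with rises of 0.43 and 0.49 (adjusted p = 0.000539 and 0.0001). Zfp759 fell by 0.94 in ST5 (adjusted p = 4.4e-05), and its difference of -0.48 in ST8 (adjusted p = 0.0145) became -0.26 and no longer passed without ST8 day 5 replicate 2 (adjusted p = 0.076). Zfp595 fell by 0.38 in ST8 (adjusted p = 0.00656) and differed by -0.23 in ST5 (adjusted p = 0.0761). The difference of Zfp708 in ST8, -0.41 (adjusted p = 0.0286), no longer passed without ST8 day 5 replicate 2, where it came to -0.23 (adjusted p = 0.168), nor without ST8 day 0 replicate 1 or 2 (adjusted p = 0.0982 and 0.0686). Zfp738 differed by 0.00 in ST8 (adjusted p = 0.976), a value that depends on which of its probe sets is read.

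**Figure D2:**
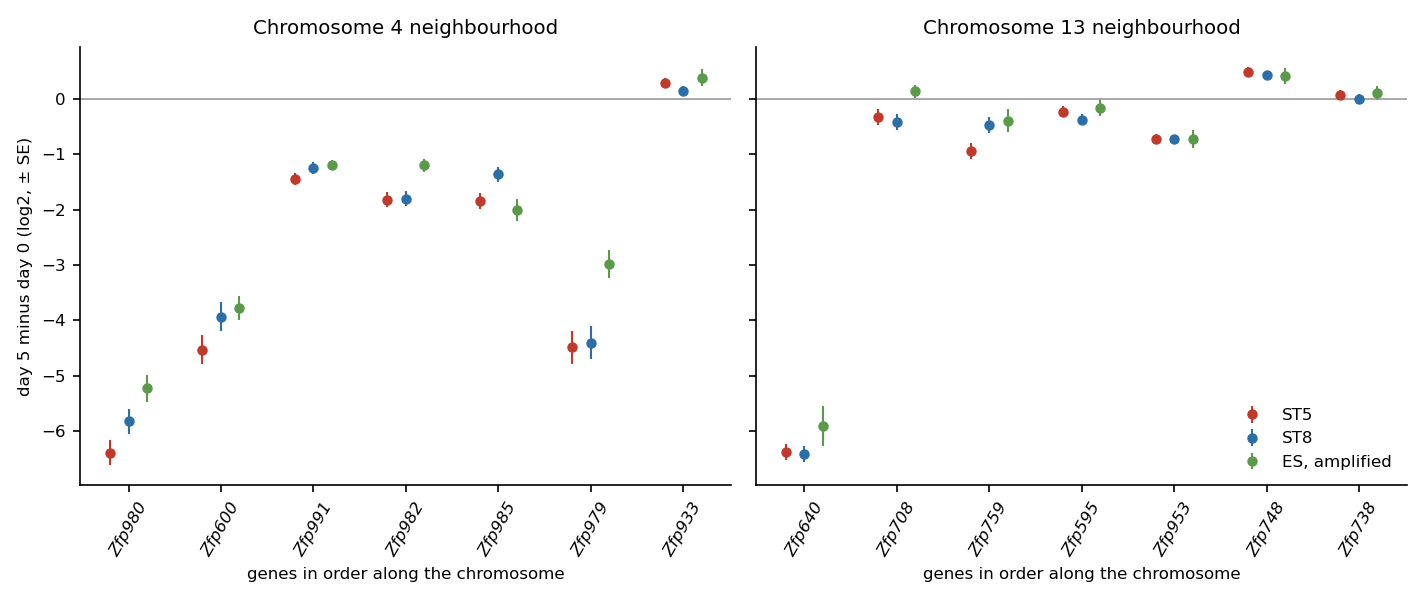
Day 5 minus day 0 differences (log2, points with standard errors) for the members of the chromosome 4 and chromosome 13 neighbourhoods, in gene order. In each line 6 of the 7 chromosome 4 members lie below -1, while on chromosome 13 only Zfp640 does.

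The 170 members formed 27 neighbourhoods of at least 2 members, which hold 108 of them, and 62 stood alone. Of the 11 neighbourhoods with at least 4 members, the one on chromosome 4 had the lowest median difference in both clones. For the rises and falls below, all genes stood at 21.0% and 19.5% in ST8 and at 23.2% and 24.8% in ST5. The groups are small, some of their counts lie near these shares, and none was tested against them. Chromosome 8 held a group of 4 (Zfp709, Zfp882, Zfp617 and Zfp961) with 0 rises and 3 falls in ST8 and 0 rises and 2 falls in ST5, at medians of -0.74 and -0.56. The 12 members of a chromosome 17 neighbourhood were mixed, 2 rising and 3 falling in ST8 and 5 rising and 2 falling in ST5. The other chromosome 17 neighbourhood, 7 members from Zfp871 to Zfp563, had 3 rises and 0 falls in ST8 and 3 rises and 1 fall in ST5. Chromosome 7 holds 49 of the 170 members, and its group of 10 from Zfp553 to Zfp646 had 3 rises and 0 falls in ST8 and 5 rises and 3 falls in ST5. Another 6 there, from Zfp628 to Zfp580, had 3 rises in ST8, 2 in ST5 and 0 falls in either clone, while 4 from Zfp790 to Zfp566 had 0 rises and 2 falls in ST8 and 1 rise and 3 falls in ST5. The 4 members from Zfp786 to Zfp775 on chromosome 6 had 2 rises and 0 falls in each clone. On chromosome 8 the 4 from Zfp930 to Zfp866 had 2 rises and 0 falls in ST8 and 2 rises and 1 fall in ST5, and on chromosome 9 the 5 from Zfp653 to Zfp810 had 1 rise and 2 falls in ST8 and 2 rises and 1 fall in ST5.

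Members with a known part in silencing also lie outside the neighbourhoods of Zfp980 and Zfp640. Of those below, Zfp809 and Zfp568 belong to the chromosome 9 and chromosome 7 groups just described. Zfp819, a KRAB protein that restrains retrotransposons in mouse pluripotent cells, read 4.76, 4.71 and 4.70 in ST8 at day 5, against 6.19, 6.23 and 6.27 at day 0. In ST5 it read 4.12, 4.67 and 4.75 at day 5, against 6.41, 6.36 and 6.49 at day 0. The days did not overlap, and it fell by 1.51 in ST8 and by 1.91 in ST5 (limma adjusted p = 7.74e-08 and 4.05e-09). Its promoter window lacks the run marked in the chromosome 4 windows. Zfp809, which recognises the primer binding site of murine leukaemia virus and recruits Trim28, fell by 0.55 in ST8 (adjusted p = 0.0001) and differed by -0.22 in ST5 (adjusted p = 0.0574). Zfp568, a KRAB repressor of a placental transcript of Igf2, fell by 0.49 and by 0.66 (adjusted p = 0.000189 and 6.09e-06). Zfp638, linked to the silencing of retroviral DNA, did not pass, with -0.10 in ST8 and 0.05 in ST5 (adjusted p = 0.382 and 0.612).

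The cofactors of KRAB proteins moved in the same comparisons. Of 17 measured genes of a list of 18 cofactors and partners, 2 rose and 11 fell in ST8 and 2 rose and 10 fell in ST5, with medians of -0.39 and -0.25. Among all genes 21.0% rose and 19.5% fell in ST8 and 23.2% and 24.8% in ST5. Trim28 fell by 0.76 in ST8 and by 0.77 in ST5 (SE 0.05 each, limma adjusted p = 1.04e-08 and 6.61e-09), and Setdb1 by 0.34 and by 0.27. Zfp57, the KRAB protein that maintains imprints, fell by 2.39 and by 2.06. The rises were those of Chd3, a subunit of the NuRD remodelling complex, in both clones (0.32 in ST8 and 0.62 in ST5), of the related Chd4 in ST8 (0.24) and of the Setdb1 partner Atf7ip in ST5 (0.26).

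The largest rises were smaller than the largest falls. Zfp608, a repressor of the Rag genes in thymocytes, read 8.20, 7.94 and 8.18 in ST8 at day 5, against 6.37, 6.30 and 6.49 at day 0. In ST5 it read 8.22, 8.26 and 8.15 at day 5, against 6.65, 6.35 and 6.22 at day 0. It rose by 1.72 in ST8 and by 1.80 in ST5 (SE 0.11 each, limma adjusted p = 2.75e-09 and 1.3e-09), with no overlap. Zfp521, which promotes neural differentiation of mouse ES cells, read 7.36, 6.87 and 7.09 in ST8 at day 5, against 5.71, 5.82 and 5.91 at day 0, and rose by 1.29 in ST8 and by 1.11 in ST5 (adjusted p = 5.51e-07 and 1.83e-06). Zfp516, a brown fat factor, rose by 0.77 and by 1.38 (adjusted p = 0.000624 and 1.32e-06), and its highest ST8 day 5 array, at 8.42 against 7.79 and 7.73, is the one that stands apart. Zfp629 rose by 0.96 and by 1.38, and Zfp606 by 0.72 and by 1.22.

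Zfp711, the only X-linked member, binds CpG island promoters together with the demethylase PHF8, and its human counterpart is mutated in families with intellectual disability. It read 4.85, 6.72 and 4.71 in ST8 at day 5, against 3.88, 4.13 and 3.84 at day 0. In ST5 it read 6.99, 7.04 and 6.92 at day 5, against 4.0, 3.52 and 3.77 at day 0. The days did not overlap in either clone, while the ST8 replicates at day 5 lay as far apart as 4.71 and 6.72 and the ST5 replicates between 6.92 and 7.04. The rise was 3.22 in ST5 (SE 0.43, limma adjusted p = 8.6e-06) and 1.47 in ST8 (adjusted p = 0.0106). Without ST8 day 5 replicate 2 the ST8 value came to 0.83, still past the threshold, and its call was lost when the ST8 groups alone were fitted (adjusted p = 0.0613). In ES cells its levels were 5.50, 3.91 and 4.14 at day 5, against 3.27, 3.48 and 3.84 at day 0, and again the array that stands apart is the highest.

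**Figure D3:**
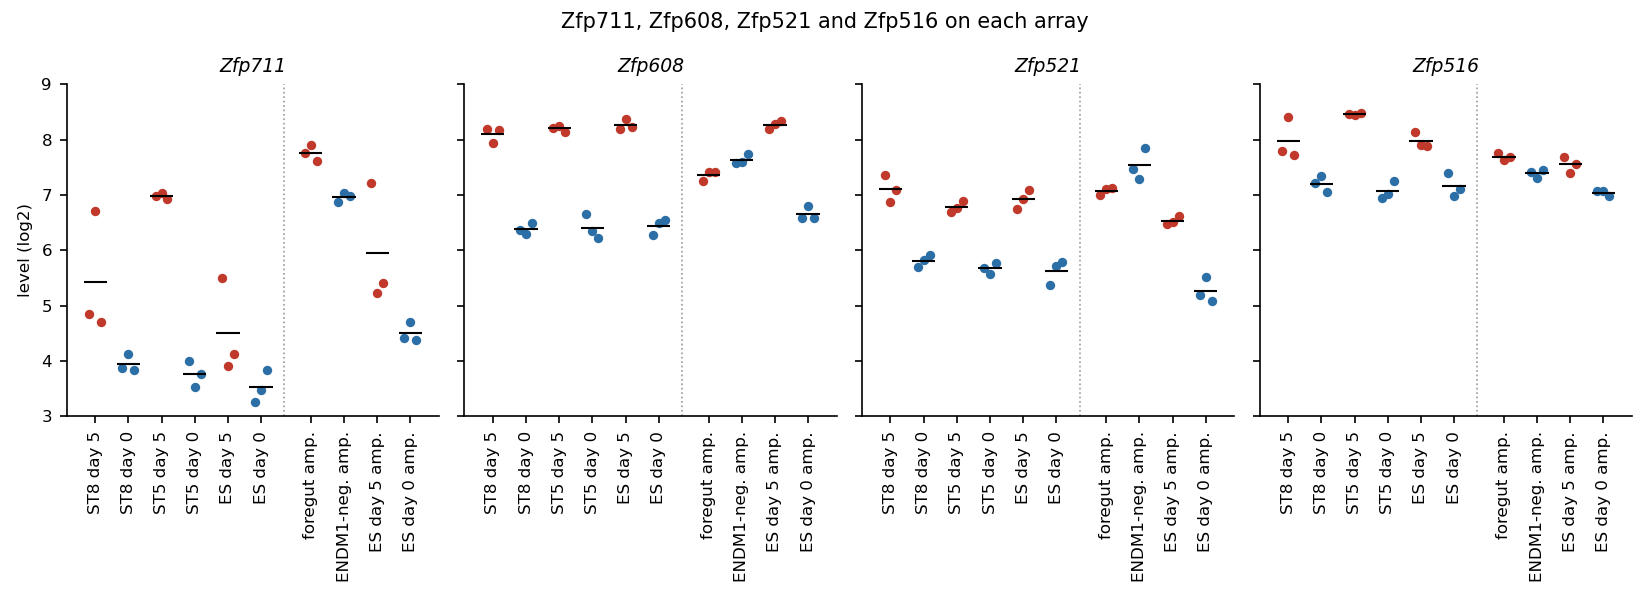
Log2 level of Zfp711, Zfp608, Zfp521 and Zfp516 on each of the 30 arrays (points) with group means (bars), unamplified arrays left of the dotted line and amplified arrays right of it, red for day 5 or foregut and blue for day 0 or ENDM1-negative cells. Zfp608 lies between 7.94 and 8.38 on the day 5 arrays without amplification and between 6.22 and 6.65 on those of day 0, while the day 5 arrays of Zfp711 are spread.

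Smaller changes touched members with roles in chromatin and in translation. Zfp687 and Zfp592, whose human counterparts are partners of the chromatin reader ZMYND8, rose by 0.67 and by 0.58 in ST8 and by 0.69 and by 0.76 in ST5, with limma adjusted p between 7.96e-05 and 5.99e-08. Zfp644, a partner of the H3K9 methyltransferases G9a and GLP, rose by 0.48 in ST8 and by 0.64 in ST5. Zfp609, a partner of the cohesin loader Nipbl, rose by 0.51 in ST5 (adjusted p = 2.2e-05) and differed by 0.12 in ST8 (adjusted p = 0.238). Zfp598, the ubiquitin ligase that senses collided ribosomes, fell by 0.62 in ST8 and by 0.51 in ST5 (adjusted p = 1e-05 and 4.77e-05). Zfp622, which acts in the maturation of the large ribosomal subunit, fell by 0.42 in ST5 (adjusted p = 0.00017), and its fall of 0.21 in ST8 (adjusted p = 0.0376) did not hold when ST8 day 5 replicate 2 or 3, or ST8 day 0 replicate 1 or 2, was left out (adjusted p up to 0.161). Zfp750, a regulator of epidermal differentiation, fell by 0.65 in ST8 and by 0.58 in ST5. Zfp706, which opposes self-renewal of mouse ES cells, fell by 0.44 in ST5 (adjusted p = 0.000161), a call that was lost with another of its probe sets (difference -0.04, adjusted p = 0.724).

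The clones share no arrays, and their differences between the days ran alike across the members. Both clones called 45 members higher and 31 lower, 0 in opposite directions, 36 in ST5 only and 11 in ST8 only, and 47 passed in neither. The shared calls are 87.4% of the 87 of ST8 and 67.9% of the 112 of ST5. Over all genes these shares were 81.9% and 69.1%, and 33 genes were called in opposite directions. Across the 170 members Pearson's r was 0.961 and Spearman's rho 0.883. Without the 8 members that fell most Pearson's r was 0.865 (n = 162). Over all 19938 genes Pearson's r was 0.902 and Spearman's rho 0.784. The correlations are a description over genes measured on the same arrays. The difference was larger in size in ST5 for 116 of the 170 members and for 12410 of all genes.

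**Figure D4:**
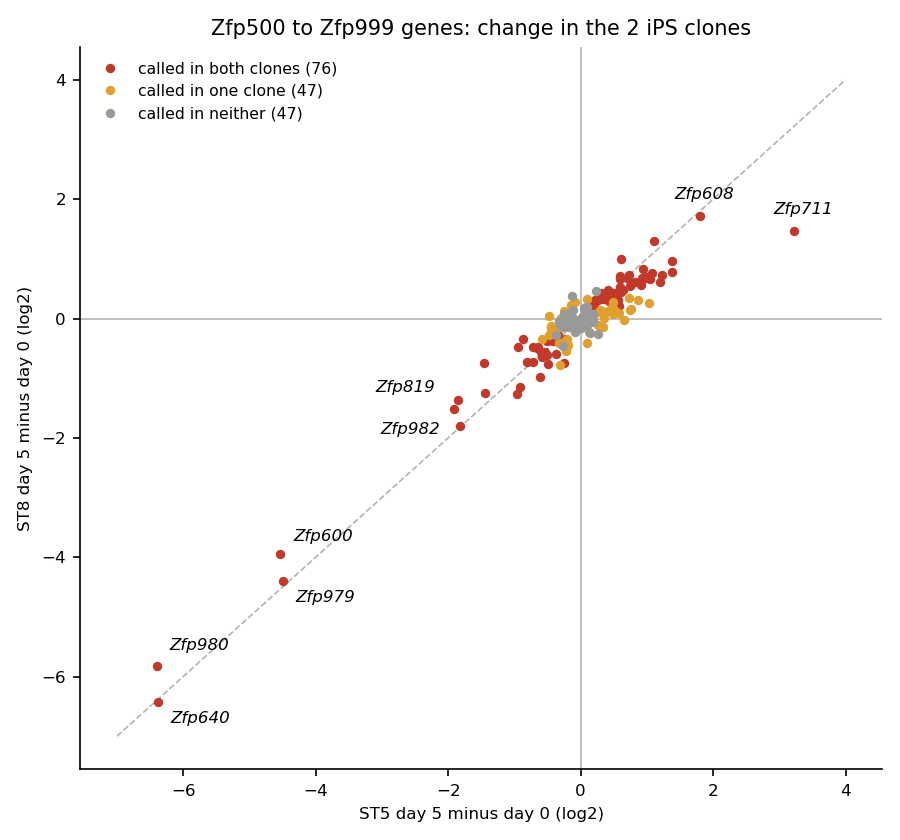
Day 5 minus day 0 difference (log2) of each of the 170 members in ST8 against that in ST5, coloured by whether limma called it in both clones, in 1 or in neither, with the line of equal change dashed. The points follow the line, Zfp640, Zfp980, Zfp600 and Zfp979 lie far below all others, and Zfp711 lies well off the line.

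Whether the clones' responses differed was tested as an interaction, which was added after the data were seen. It called 2 members higher and 2 lower in ST8, against 1.05% and 1.11% of all genes. The 4 were Zfp593, Zfp689, Zfp532 and Zfp781, and the test on Zfp711 gave -1.75 (limma adjusted p = 0.124). Without ST8 day 5 replicate 2 the count was 38. It was 4 without ST5 day 0 replicate 3, 2 without ST5 day 5 replicate 2, and 0 or 1 without any 1 of the other 9 arrays.

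Direct comparison of the clones showed little at day 0 and more at day 5. On the day 0 arrays 0 members were higher and 0 lower in ST8 than in ST5 by limma, against 0.0502% and 0.0150% of all genes, and 17 members (10%) had an unadjusted p under 0.05, against 7.89% of all genes. At day 5 15 members were higher and 18 lower in ST8, against 8.29% and 6.30% of all genes. With arrays shifted to a common median the split was 11 higher and 28 lower, and with these groups alone in the fit 0 members were called. The count was 58 without ST8 day 5 replicate 2. It fell to 13 without ST8 day 5 replicate 1 and to 9 without replicate 3, and to 13, 20 and 19 without ST5 day 5 replicates 1, 2 and 3. Zfp606 read 7.37, 7.72 and 7.39 in ST8 at day 5 and 8.11, 8.20 and 8.15 in ST5, a difference of -0.66 (SE 0.09, adjusted p = 0.000811) with no overlap. Zfp667 read 7.25, 7.78 and 7.01 in ST8 and 8.32, 8.35 and 8.37 in ST5 (difference -1.0, adjusted p = 0.00491). Zfp941 was higher by 0.76 in ST8 (adjusted p = 0.00281) and Zfp991 by 0.52 (adjusted p = 0.00725), and Zfp583 and Zfp715 were lower by 0.66 and 0.53. These 6 kept their calls without any 1 array. Zfp980 was higher by 0.85 in ST8 (adjusted p = 0.0206), Zfp600 by 0.91 (adjusted p = 0.0296) and Zfp711 lower by 1.56 (adjusted p = 0.0255), each lost without ST8 day 5 replicate 1 or 3 or ST5 day 5 replicate 1 or 3, and Zfp711 also without ST5 day 5 replicate 2 (adjusted p up to 0.149). On ST8 day 5 replicate 2 these 3 genes lay closest to their ST5 levels. Zfp640 differed by 0.28 (adjusted p = 0.201).

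Against ES cells, the mean of both clones differed for few members at day 0. This comparison uses ES arrays that also enter the contrast behind the choice of members. A total of 5 members were higher and 2 lower in the iPS clones, against 2.25% and 2.62% of all genes. Zfp532, whose human counterpart is a partner of ZMYND8, read 9.18, 9.02 and 9.16 in ST8 and 8.83, 8.95 and 8.94 in ST5, against 8.63, 8.54 and 8.60 in ES cells. Every iPS array lay above every ES array, and the difference was 0.42 (SE 0.06, limma adjusted p = 0.00042). Zfp869 and Zfp788 were higher by 0.29 and 0.30 (adjusted p = 0.0024 and 0.00511), and Zfp951 and Zfp688 differed by -0.51 and -0.36 (adjusted p = 0.00311 and 0.00463). Zfp654, higher by 0.36 (adjusted p = 0.0257), lost its call without ES day 0 replicate 1 or 2 or ST8 day 0 replicate 1 (adjusted p up to 0.182). Zfp626, higher by 0.25 (adjusted p = 0.0494), lost it without any 1 of 7 of the 9 arrays, all but ST5 day 0 replicate 2 and ST8 day 0 replicate 3 (adjusted p up to 0.229). Zfp640 differed by 0.44 (adjusted p = 0.0544) and Zfp980 by -0.32 (adjusted p = 0.467).

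At day 5 22 members were higher and 5 lower in the mean of the clones than in ES cells, against 4.31% and 4.29% of all genes. The ES day 5 arrays used here also enter the contrast behind the choice of members. With arrays shifted to a common median the split was 36 higher and 3 lower. Single arrays moved this count by more than 1.5 times. It was 51 without ES day 5 replicate 1, which stood apart, 5 without replicate 2, 3 without replicate 3, 17 without ST5 day 5 replicate 1, and 55 without both unamplified arrays that stood apart. Only 3 named members kept their call without any 1 array. Zfp942 read 7.27, 7.20 and 7.12 in ST8 and 7.34, 7.45 and 7.5 in ST5, against 6.81, 6.65 and 6.84 in ES cells, a difference of 0.55 (SE 0.08, limma adjusted p = 0.00104). Zfp781 read 7.64, 7.71 and 7.47 in ST8 and 8.01, 8.09 and 8.01 in ST5, against 7.47, 7.21 and 7.34 in ES cells (difference 0.48, adjusted p = 0.00166). Zfp748 was higher by 0.44 (adjusted p = 0.00304). Zfp711 was higher by 1.69 (adjusted p = 0.0142) and Zfp979 differed by -1.14 (adjusted p = 0.0158), both lost without ES day 5 replicate 2 or 3 (adjusted p up to 0.118). Zfp640 differed by 0.11 and Zfp980 by -0.49 (adjusted p = 0.578 and 0.112).

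In the embryo Zfp640 was lower in foregut than in the ENDM1-negative cells. On the amplified arrays it read 2.46, 2.52 and 2.91 in E8.25 foregut, against 5.49, 5.11 and 3.5 in ENDM1-negative cells. The ENDM1-negative arrays differed widely among themselves and all lay above the foregut arrays. The difference was -2.07 (SE 0.36, limma adjusted p = 0.00364), and it stayed below an adjusted p of 0.05 without any 1 array (-2.67 to -1.67). The probe set used is the one of 3 with the highest mean, and the other 2 averaged 1.98 and 1.96 in foregut and 2.26 and 2.79 in ENDM1-negative cells. The 2 probe sets that Zfp640 shares with another gene averaged 3.32 and 3.17 in foregut and 5.55 and 5.42 in ENDM1-negative cells. Zfp980 read 2.92, 2.49 and 2.53 in foregut, against 3.61, 2.32 and 2.82 in ENDM1-negative cells, and the groups overlapped (difference -0.27, adjusted p = 0.574). All 7 members of the chromosome 4 neighbourhood had a lower mean in foregut, with a median difference of -0.44, against 0.01 for all genes, and 1 of the 7, Zfp982, was called (-0.49, adjusted p = 0.0268). A higher mean in foregut was seen for 10209 of all 19938 genes and for 73 of the 170 members. Whether probe sets of the near copies on chromosome 4 also read each other was not tested, so the 7 may not be separate readings. Zfp979 read 3.82, 4.15 and 4.04 in foregut, against 5.20, 4.68 and 4.22 in ENDM1-negative cells, and Zfp991 read 8.38, 8.19 and 8.30, against 8.59, 8.53 and 8.64. Neither overlapped between the groups and neither passed (-0.70, adjusted p = 0.113, and -0.30, adjusted p = 0.0516).

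Among all members 1 was higher and 6 were lower in foregut than in ENDM1-negative cells, against 3.71% and 4.43% of all genes. As shares of the members these are 0.588% and 3.53%, which is below that background. The split was 2 higher and 6 lower after a further quantile normalization and 0 and 10 with arrays shifted to a common median. Besides Zfp640, the lower members were Zfp958, Zfp982, Zfp820, Zfp706 and Zfp568, by 0.56, 0.49, 0.49, 0.38 and 0.36, and the higher one was Zfp516 by 0.30. The calls of Zfp820, Zfp568 and Zfp516 were lost without any 1 of the 6 arrays (limma adjusted p up to 0.164). That of Zfp958 was lost without replicate 1 of either group, that of Zfp982 without ENDM1-negative replicate 1 or 2 or foregut replicate 1 or 3, and that of Zfp706 without ENDM1-negative replicate 1 or 3 or foregut replicate 2 or 3 (adjusted p up to 0.0997). Leaving out 1 array gave counts of 1, 4 and 4 members without ENDM1-negative replicates 1, 2 and 3 and of 3, 4 and 2 without foregut replicates 1, 2 and 3. Between these sorted populations definitive endoderm markers were higher in foregut in 7 of 11 cases and visceral endoderm markers in 5 of 6 (array means 7.80 to 9.36 in foregut and 5.68 to 6.55 in ENDM1-negative cells). Endothelial markers were lower in 5 of 5 (4.69 to 4.86 and 6.26 to 7.0). Pluripotency markers were lower in 5 of 12 and higher in 1 (5.72 to 5.92 and 6.36 to 6.66), and fibroblast markers higher in 2 of 12 and lower in 1. Blood markers were higher in 1 of 5 (6.2 to 6.60 and 5.75 to 6.47). The part of these cell types in the values of the members was not tested.

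Set against ES cells at day 5, foregut of the embryo had lower levels of many members. A total of 13 members were higher and 60 lower in foregut, against 14.7% and 9.42% of all genes, and the median difference was -0.18 for the members and 0.08 for all genes. Zfp1 to Zfp499 had 8 higher and 44 lower of 147. The amplified ES day 5 arrays may hold the cultures whose unamplified values drew attention to these genes. The groups also differ in strain, in the RNA kit and in the sort, which cannot be told apart from the source of the cells. Visceral endoderm markers were higher in foregut in 6 of 6 cases and blood markers in 4 of 5. Fibroblast markers were higher in 3 of 12 and endothelial markers in 2 of 5, with 0 lower. Definitive endoderm markers were higher in 2 of 11 and lower in 3, and pluripotency markers higher in 3 of 12 and lower in 4. The count was 73 without amplified ES day 5 replicate 1 as well.

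Zfp759 read 4.97, 5.65 and 5.27 in foregut, against 6.59, 7.04 and 7.36 in ES cells at day 5, a difference of -1.70 (SE 0.21, limma adjusted p = 0.000103). Zfp950 read 4.62, 4.81 and 4.37, against 6.00, 5.98 and 6.36 (difference -1.52, adjusted p = 2.73e-05). Neither overlapped between the groups. Zfp672, Zfp958, Zfp719 and Zfp933 were lower by 1.31, 1.23, 1.21 and 1.18, and the chromosome 13 neighbours Zfp953, Zfp708 and Zfp738 by 1.09, 0.72 and 0.66. Zfp608, which had risen at day 5 in culture, read 7.26, 7.42 and 7.41 in foregut, against 8.19, 8.28 and 8.34 in ES cells at day 5 (difference -0.90, adjusted p = 2.06e-05).

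The higher members were led by Zfp711, at 7.76, 7.90 and 7.61 in foregut, against 7.22, 5.23 and 5.42 in ES cells at day 5. The groups did not overlap, and the ES array nearest to foregut is the one that stands apart. The difference was 1.80 (SE 0.37, limma adjusted p = 0.00393). Zfp985 of chromosome 4 was higher in foregut as well, with 5.45, 5.79 and 5.61 against 4.20, 4.83 and 5.02 (difference 0.93, adjusted p = 0.00373), while Zfp991 was lower by 0.43 (adjusted p = 0.00313). Zfp618, Zfp521, Zfp598 and Zfp622 were higher by 0.61, 0.54, 0.41 and 0.31. Zfp640 and Zfp980 did not pass, at -0.19 (SE 0.36, adjusted p = 0.732) and 0.12 (SE 0.24, adjusted p = 0.767). Of 24 named calls in this comparison 19 held without any 1 array. The exceptions were Zfp773 (higher by 0.95, adjusted p up to 0.119), Zfp709 (higher by 0.81, up to 0.108), Zfp600 (lower by 0.66, up to 0.165), Zfp748 (lower by 0.52, up to 0.07) and Zfp644 (lower by 0.34, up to 0.0602). Each array of both groups ended at least 1 of these calls.

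**Figure D5:**
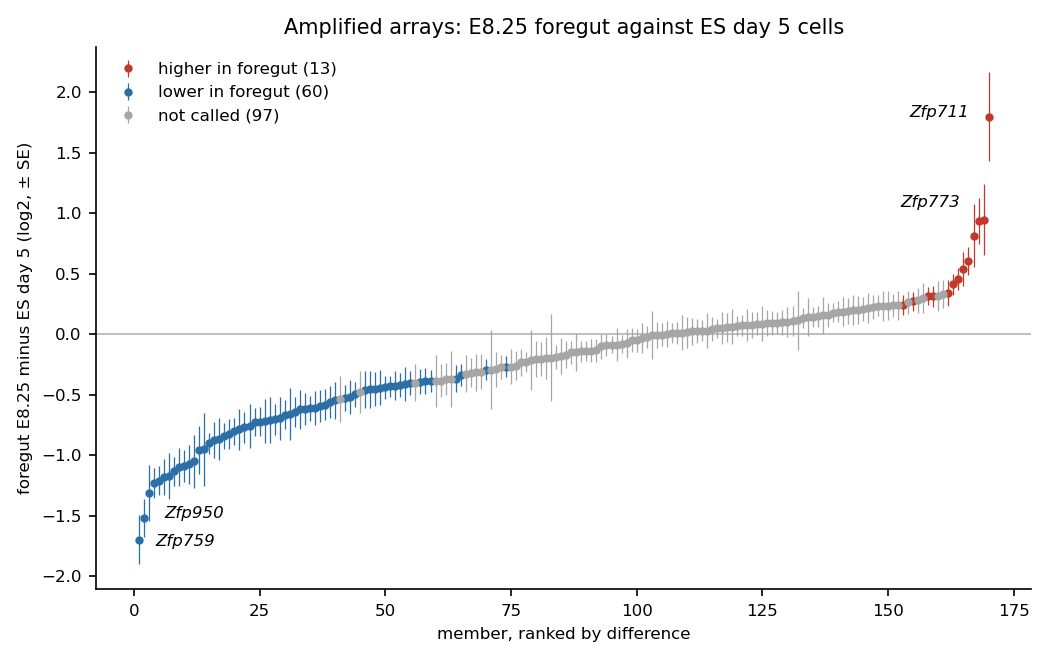
Foregut E8.25 minus ES day 5 difference on the amplified arrays (log2, points with standard errors) for the 170 members, ranked. The 60 members called lower in foregut are blue, the 13 called higher are red and the 97 not called are grey, with Zfp759 lowest at -1.70 and Zfp711 highest at 1.80.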

How the data were processed

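Gene expression was measured on 30 Affymetrix Mouse Gene 1.0 ST arrays. The deposited log2 values come from RMA, per the submitters' processing notes, and its version, and whether both labellings were processed together, are not given in the sources used here. Of 35556 probe sets, the platform annotation listed 23410, and 21789 named a single gene. The 1621 that name several genes and the 12146 not listed were left out of the tests, which left 19938 genes. Of the 170 members 169 matched the RefSeq gene table by gene ID. The labels call the arrays of a group biological replicates, and 0 columns were identical.

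Group means were fitted with limma 3.58.1 (R 4.3.3), once for the 18 unamplified arrays with 12 residual degrees of freedom and once for the 12 amplified arrays with 8. Tests were two-sided and moderated, and a gene was called at an adjusted p (Benjamini and Hochberg, over every gene tested) under 0.05. Promoters were compared with Biopython 1.88. Named members are Zfp640 and Zfp980, the 6 largest called rises and 6 largest called falls of each contrast without overlap of arrays, 29 members with a listed role where called, and the neighbours of Zfp640 and Zfp980. The members and the lists were chosen with earlier results of these data known. The p-values of ES day 5 against day 0 were computed but are not given for members. On simulated data with 19938 genes in the layout of ST5 day 5 against day 0, differences of 0.5, 1, 2 and -2 were found for 58%, 98%, 98% and 100% of the 50 genes given each size, with 4.84% of calls false. For the amplified layout of ES day 5 against day 0 these were 52%, 94%, 100% and 100%, with 7.98% false.

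Alternatives were a fit of all 30 arrays, a fit of the compared groups alone, further quantile normalization, a shift to a common median, leaving out genes under the median level, other ways to choose or average probe sets, the replicate number as a block, a robust spread that follows intensity, and leaving out each array. The test of the clones' difference in response, and leaving out both unamplified arrays that stood apart, were added after the data were seen.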

Additional observations from a re-analysis of the deposited data

Results flagged for a closer look

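For 4 members the day 5 minus day 0 difference of ST8 was told apart from that of ST5 by the interaction test, which was added after the data were seen, and Zfp593, Zfp689 and Zfp781 were named after their values were seen. Zfp532 had 8.66, 8.82 and 8.66 in ST8 at day 5, against 9.18, 9.02 and 9.16 at day 0, and 9.10, 8.98 and 8.95 in ST5 at day 5, against 8.83, 8.95 and 8.94 at day 0. Its level was lower at day 5 in ST8 and overlapped between the days in ST5, and the responses of -0.41 and 0.10 differed by -0.51 (SE 0.10, limma adjusted p = 0.0226). Zfp689 had 6.29, 6.12 and 6.30 in ST8 at day 5, against 6.17, 6.2 and 6.2 at day 0, and 5.81, 5.89 and 5.95 in ST5 at day 5, against 6.32, 6.47 and 6.28 at day 0, a difference of 0.51 between responses of 0.04 and -0.47 (adjusted p = 0.0341). Zfp593 was lower at day 5 in both clones, by 0.33 in ST8 and 0.87 in ST5, a difference of 0.54 (adjusted p = 0.0394). Zfp781 was lower by 0.74 in ST8 and 0.25 in ST5, a difference of -0.50 (adjusted p = 0.0468). Leaving out 1 of the 12 arrays ended the call of Zfp532 in 6 cases, of Zfp593 in 9, and of Zfp689 and Zfp781 in 10 each, with adjusted p up to 0.0708, 0.121, 0.107 and 0.139.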

How the results depend on the processing

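The 161 called values of named members were read again under each alternative, which gave 2431 values in all. All 2431 kept the direction, and the call was lost in 294 of them. The alternatives reuse most of the same arrays, and the values were picked because they were called, so a kept direction carries little weight. Counts of members were less stable in the smaller contrasts. With only the groups of a contrast in the fit, 15 members were called in place of 7 for iPS clones against ES cells at day 0, 3 in place of 27 at day 5, 0 in place of 33 for ST8 against ST5 at day 5, and 0 in place of 4 for the difference in response. For foregut against ENDM1-negative cells, 14 were called in place of 7 with all 30 arrays in the fit and 4 with a replicate block, which also gave 2 in place of 4 for the difference in response; elsewhere the replicate block moved no count by over 1.5 times. Same-numbered arrays of the groups compared share only a number: their deviations from the group means correlated at -0.648 to 0.505, and in no tested comparison were all 3 correlations above 0.1. Amplified and unamplified ES day 5 arrays, which were not compared, correlated at 0.65, 0.447 and 0.285. Leaving out 1 array gave 83 to 90 calls in ST8, 102 to 110 in ST5, 83 to 90 in ES cells and 52 to 57 in amplified ES cells. The ranges were 5 to 9 for iPS clones against ES cells at day 0, 3 to 51 at day 5 (55 without both arrays that stood apart), 0 to 0 for ST8 against ST5 at day 0, 9 to 58 at day 5, 0 to 38 for the difference in response, 1 to 4 for foregut against ENDM1-negative cells and 54 to 73 for foregut against ES cells. Zfp738 in ST8 reversed from 0.00 to -0.29 with the mean of its probe sets and to -0.47 with the probe set of largest spread, and was called lower with both. Groups of 3 arrays and the lack of probe-level background limit what can be said of members at the lowest values.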
